A study of Macaca mulatta with 8 samples.

Results

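The genes described here make, convert or break down steroids and oxidised cholesterol: STAR, HSD3B2, CYP19A1, HSD17B1, NR5A2, CYP3A5 and CH25H. They were chosen as every probe set, that is every group of probes designed to read 1 transcript, whose single gene symbol on the array is one of these 7. That rule took 11 of 52766 probe sets, 3 each for NR5A2 and CYP3A5 and 1 for each of the others. The genes were picked with the comparison of oocytes matured in culture and in the animal already known, so their differences between those groups are given as a description and support nothing.

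The RNA came from rhesus macaque oocytes arrested at metaphase II, where a mature egg waits for the sperm. The in vivo matured group had 4 arrays of oocytes that reached this stage in the animal, and the in vitro matured group had 4 arrays of oocytes that reached it in culture. Each array read RNA of a pool of 4 oocytes after 2 rounds of amplification. The labels number the arrays of each group 1 to 4 and say nothing of the animals, their age, hormone treatment or the culture medium.

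Steroids are built from cholesterol in the cells around the oocyte. Theca cells and luteinizing granulosa cells carry cholesterol into mitochondria, shorten it to pregnenolone and oxidise that to progesterone, while granulosa cells turn androgens into oestrogens with aromatase. Oxysterols are cholesterol molecules with an added hydroxyl group, and cells use them to sense and limit their own sterol content. The oocyte itself is not regarded as a main site of steroid synthesis, so transcripts of these enzymes in oocyte pools can also come from follicle cells that remained attached. In pooled RNA, fewer cells of a type and less RNA per cell cannot be told apart.

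The values are MAS5 signals, an intensity in arbitrary units that follows the brightness of a probe set's own probes, so levels are compared between arrays and not between probe sets. The trimmed mean signal was 150 on each of the 8 arrays. Background, set on each array at the 95th percentile of signals from 59 controls for bacterial transcripts and synthetic tags, lay between 15.7 and 27.0 on the 8 arrays. All 15 oocyte markers examined were above background on at least 1 array, among them ZP3 of the zona pellucida at 12705 ± 2172 in vivo and 10324 ± 2120 in vitro (n = 4 each, ± SD). Log2 fold changes are in vitro minus in vivo on the scale of log2(signal + 8.2), which understates the change of dim transcripts.

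Among the member probe sets, those of STAR, HSD3B2 and CYP3A5 were higher on every in vitro array than on any in vivo array, and that of CH25H was lower. CYP19A1, HSD17B1 and NR5A2 overlapped between the groups. In all, the groups did not overlap at 6 of the 11 member probe sets, against 6.28% of the 26383 probe sets bright enough to be tested. Of these members 5 were higher in vitro, against 3.17% of all tested, and 1 was lower, against 3.11%. Of the 10 member probe sets bright enough, 3 passed a limma adjusted p of 0.05, against 0.144% of all tested. The 2 that were higher in vitro, of STAR and CYP3A5, stand beside 0.102% of all tested, and the 1 that was lower, of CH25H, beside 0.0417%. Median centring moved the share of higher among all calls from 71.1% to 59.6%, and leaving out in vivo replicate 4 moved it to 45.4%. Nothing is read from these counts, since the genes were chosen on this comparison.

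STAR encodes the steroidogenic acute regulatory protein, which moves cholesterol to the inner mitochondrial membrane, the step that limits steroid synthesis. The signal of its probe set (MmuSTS.4519.1.S1_at) was 322, 202, 90.6 and 148 on in vivo arrays 1 to 4. It was 1623, 1097, 1478 and 526 on in vitro arrays 1 to 4. In vitro replicate 4 was the lowest of its group, and it still lay 1.63-fold above the highest in vivo array. All 8 values were above background. The means were 191 ± 98.9 and 1181 ± 490 (SD, n = 4 each), with a log2 fold change of 2.60 ± 0.38 (SE). Without in vitro replicate 1, 2 or 3 the log2 fold change was 2.40, 2.59 or 2.45, and the limma adjusted p was then 0.0563, 0.0518 and 0.0590, above the threshold.

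HSD3B2 encodes a 3-beta-hydroxysteroid dehydrogenase, which turns pregnenolone into progesterone. Its probe set (MmugDNA.19420.1.S1_at) was at 63.5, 113, 1.8 and 45.7 on in vivo arrays 1 to 4 and at 181, 465, 133 and 196 on in vitro arrays 1 to 4. In vivo replicate 3 was below background, and the lowest in vitro array lay 1.18-fold above the highest in vivo array. The means were 55.9 ± 45.8 and 244 ± 150 (SD, n = 4 each). The log2 fold change of 2.28 ± 0.60 (SE) did not pass, and without in vivo replicate 3 it was 1.54. A further probe set, listed for both HSD3B2 and another gene and so outside the rule, read 40.1 ± 18.3 in vivo against 30.8 ± 6.52 in vitro, with overlap.

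CYP3A5 encodes a cytochrome P450 that hydroxylates testosterone, progesterone and many drugs. The brightest of its 3 probe sets (MmugDNA.36201.1.S1_at) had signals of 13.7, 3.8, 0.6 and 8.1 in vivo, none of them above background. The in vitro arrays 1 to 4 read 129, 96.1, 56.1 and 38.6, all above background. With each in vivo array set at its background, this probe set was at least 2.65-fold higher in vitro. The measured means were 6.55 ± 5.67 and 79.9 ± 40.6 (SD, n = 4 each), with a log2 fold change of 2.54 ± 0.45 (SE). That call was lost without in vivo replicate 2 or 3 or in vitro replicate 3, where the log2 fold change was 2.47, 2.32 and 2.65 at limma adjusted p-values of 0.105, 0.0786 and 0.121. It was also lost without in vitro replicate 1 or 2, where its mean fell under the brightness filter.

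The other CYP3A5 probe sets did not pass, although their groups did not overlap either. One (MmugDNA.40591.1.S1_s_at) was at 15.0, 19.4, 18.2 and 1.0 in vivo and at 98.4, 60.3, 36.8 and 44.5 in vitro. Only in vivo replicate 2 was above background in its group, and the log2 fold change was 1.70 ± 0.45 (SE). The remaining probe set (MmugDNA.6075.1.S1_at) read 5.5, 5.9, 24.3 and 15.0 in vivo and 45.0, 75.8, 57.9 and 52.2 in vitro. All of its in vivo arrays were at background, so it was at least 2.13-fold higher in vitro. The 3 CYP3A5 probe sets were bright enough to be tested only through their in vitro signals.

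Genes of the CYP3A family are close in sequence, and a probe set can read more than 1 of them. A probe set listed for both CYP3A5 and CYP3A4, and so outside the rule, was at 27.6 ± 10.3 in vivo and 109 ± 41.1 in vitro, again without overlap. Unlike the CYP3A5 probe sets, it was above background on 3 in vivo arrays, and on 4 in vitro arrays. The 4 probe sets listed for CYP3A4 alone, looked up after the values of CYP3A5 were seen, were above background on 0 in vitro arrays, and the brightest of them was above it on 1 in vivo array.

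CH25H encodes cholesterol 25-hydroxylase, which makes the oxysterol 25-hydroxycholesterol. Its signal (MmugDNA.12881.1.S1_at) was 151, 115, 110 and 80.1 on in vivo arrays 1 to 4, all above background. On in vitro arrays 1 to 4 it was 27.1, 15.3, 13.1 and 4.5, with only replicate 1 above background. The lowest in vivo array lay 2.96-fold above the highest in vitro array. The means were 114 ± 29.1 and 15.0 ± 9.32 (SD, n = 4 each), and the log2 fold change was -2.46 ± 0.36 (SE). Without in vivo replicate 2 it was -2.45 at a limma adjusted p of 0.0517. The CH25H probe set was bright enough to be tested only through its in vivo signals.

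Macrophages and other immune cells are known to express CH25H. The 10 blood and immune markers on the array had a summed signal of 251 to 359 on the in vivo arrays and 112 to 237 on the in vitro arrays, without overlap. Of these markers, 5 or 6 were above background on each in vivo array and 1 to 5 on each in vitro array. The haemoglobin gene HBB had the highest in vivo mean of the list, at 72.1 ± 67.2, and was at 27.0 ± 31.0 in vitro. The sums thus include a haemoglobin gene and signals at or below background, and do not measure macrophages alone. The macrophage marker CD68, at its brightest probe set, was at 49.2 ± 47.2 in vivo and 15.9 ± 7.59 in vitro, above background on 4 in vivo and 0 in vitro arrays. CD14, of the same list, went the other way, at 26.5 ± 10.4 in vivo and 29.6 ± 7.70 in vitro. It was above background on 3 in vivo and 4 in vitro arrays. S100A9 was not above background on any array, and the leukocyte marker PTPRC was above background on 1 in vivo and 0 in vitro arrays at its brightest probe set. None of the 5 tested markers of this list passed the adjusted threshold, and their part in the CH25H difference was not tested.

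**Figure D1:**
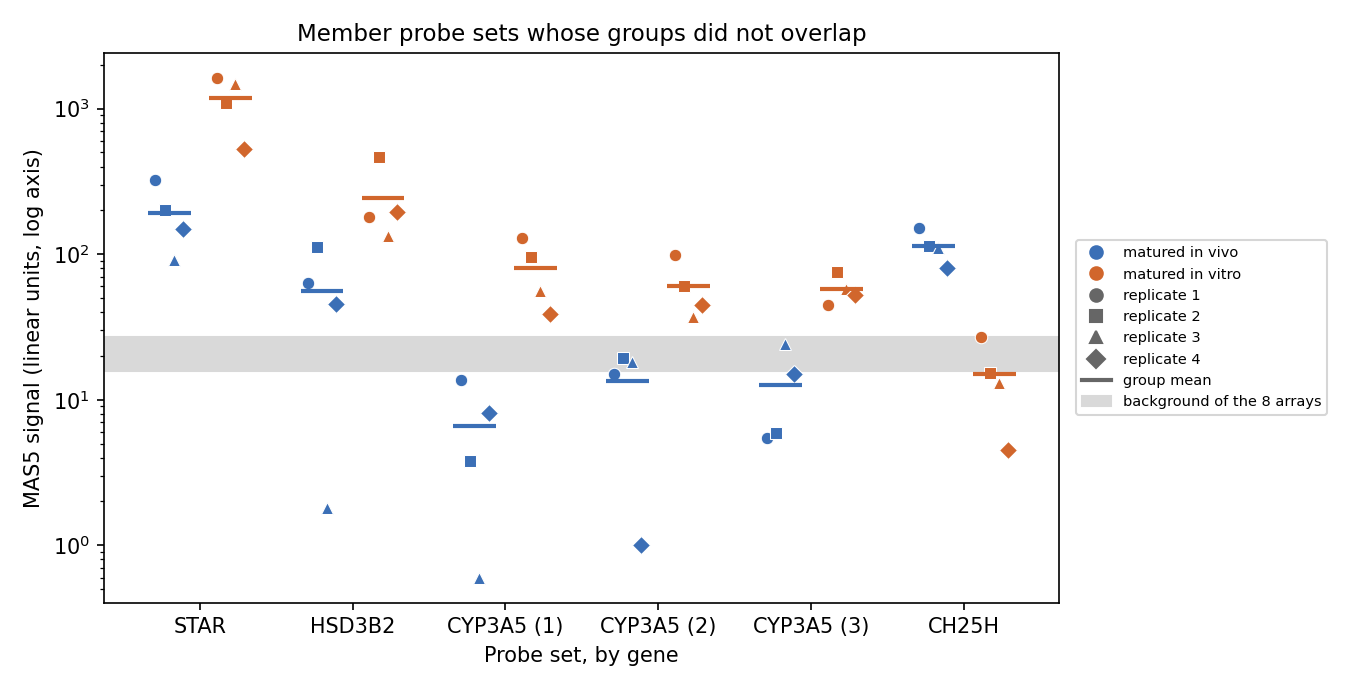
MAS5 signal (log axis) on each of the 8 arrays for the 6 member probe sets whose groups did not overlap, with a marker shape for each replicate, a bar for each group mean and a grey band for the range of background over the arrays. In vitro arrays (orange) lie above in vivo arrays (blue) for STAR, HSD3B2 and the 3 CYP3A5 probe sets, whose in vivo values lie in or under the band, and below them for CH25H.

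CYP19A1 encodes aromatase, which converts androgens to oestrogens in granulosa cells. Its probe set was at 47.8, 295, 75.8 and 39.7 on in vivo arrays 1 to 4 and at 103, 156, 95.9 and 58.7 on in vitro arrays 1 to 4. In vivo replicate 2 stood far above every other array, and the remaining in vivo arrays lay at or below most in vitro values. All 8 values were above background. The log2 fold change was 0.22 ± 0.48 (SE), and 0.80 with in vivo replicate 2 left out. It was -0.084 without in vivo array 4 and -0.0091 without array 1, so its direction was not settled.

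HSD17B1 encodes the 17-beta-hydroxysteroid dehydrogenase that reduces oestrone to oestradiol. On in vivo arrays 1 to 4 its signal (MmugDNA.19417.1.S1_at) was 182, 44.2, 215 and 14, and on in vitro arrays 1 to 4 it was 121, 133, 57.3 and 36.9. The in vivo arrays spanned a 15.4-fold range, from below background on replicate 4 to above every in vitro array on replicates 1 and 3. The in vitro arrays spanned 3.60-fold within that range. The log2 fold change was 0.03 ± 0.62 (SE) and became -0.61 without in vivo replicate 4. It was also negative, at -0.20, -0.17 and -0.21, without in vivo replicate 2 or in vitro replicate 1 or 2.

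NR5A2 encodes LRH-1, a nuclear receptor that switches on steroidogenic genes, CYP19A1 and STAR among them. The brightest NR5A2 probe set (MmugDNA.8461.1.S1_at) was at 242, 74.8, 258 and 46.4 in vivo and at 105, 107, 92.9 and 39.7 in vitro. A dimmer one (MmugDNA.9427.1.S1_at) was at 112, 26.2, 115 and 16.4 in vivo and at 35.6, 37.4, 44.5 and 35.2 in vitro. Both probe sets thus put in vivo replicates 1 and 3 above all other arrays and in vivo replicate 4 at or near the bottom. Their log2 fold changes were -0.57 ± 0.47 and -0.36 ± 0.48 (SE). The remaining NR5A2 probe set (MmugDNA.17889.1.S1_at) was above background on 1 in vivo and 2 in vitro arrays and was not tested.

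**Figure D2:**
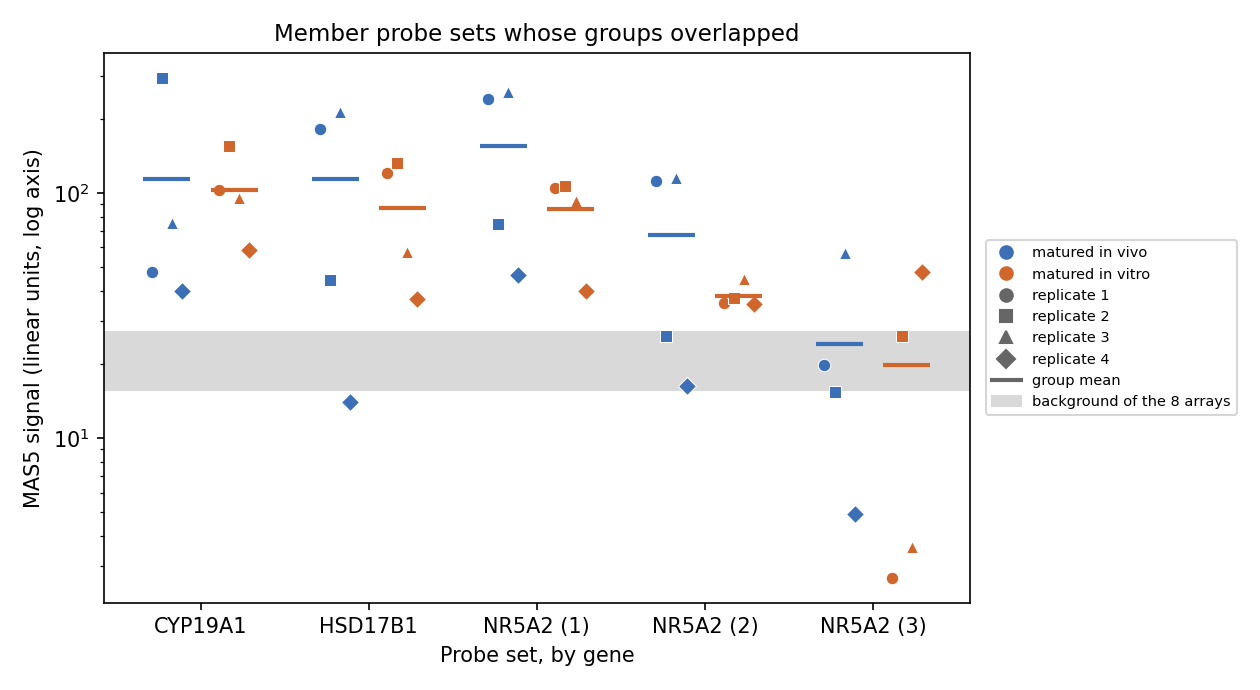
MAS5 signal (log axis) on each of the 8 arrays for the 5 member probe sets whose groups overlapped, drawn with the same colours, shapes, mean bars and background band. In vivo replicates 1 and 3 are the highest arrays for HSD17B1 and for the first and second NR5A2 probe sets, and in vivo replicate 2 is the highest for CYP19A1.

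HSD17B1 and NR5A2 therefore had the same order within the in vivo group, an order picked out after their values were seen. The lower of in vivo replicates 1 and 3 lay above the higher of replicates 2 and 4 by 4.13-fold at HSD17B1 and by 3.24-fold and 4.27-fold at the brighter NR5A2 probe sets. Replicates 1 and 3 lay above 2 and 4 at 25.4% of all tested probe sets. At 265 of all tested probe sets they did so by at least 3.24-fold, a cut set by the smallest of these ratios. The remaining NR5A2 probe set had the same order, at 1.29-fold, and the other genes did not. In vivo replicate 3 was the lowest of its group for STAR, HSD3B2 and the brightest CYP3A5 probe set.

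The in vivo arrays also differed in how well amplified RNA covered the 5' ends of transcripts. The ratio of 3' to 5' signal of the control transcript EEF1A1, which rises when the 5' end is lost, was 2.70 and 2.72 on in vivo replicates 1 and 3. It was 7.70 and 12.8 on in vivo replicates 2 and 4, and 3.59 to 4.91 on the in vitro arrays. For beta-actin the ratio was 75.3 and 51.2 on in vivo replicates 1 and 3, 150 and 108 on replicates 2 and 4, and 51.1 to 108 on the in vitro arrays. For GAPDH it was 24.6 and 20.6 on in vivo replicates 1 and 3, 49.4 and 24.8 on replicates 2 and 4, and 27.3 to 47.3 in vitro. By EEF1A1 and beta-actin the in vivo arrays with the higher ratios were those with the lower HSD17B1 and NR5A2 signals, while GAPDH put replicate 4 level with replicate 1. The part of amplification in this order was not tested. Among the in vitro arrays, replicate 4 had the lowest EEF1A1 ratio and also the lowest HSD17B1 signal.

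**Figure D3:**
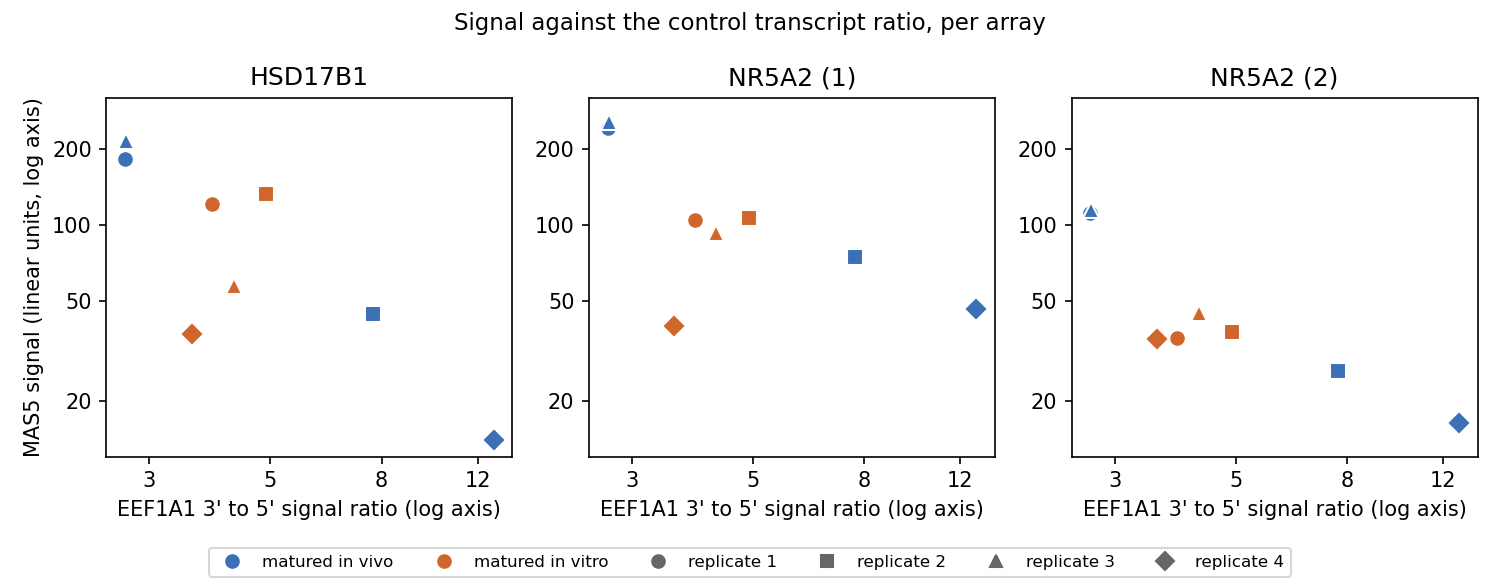
MAS5 signal (log axis) of HSD17B1 and of the first and second NR5A2 probe sets against the EEF1A1 3' to 5' signal ratio (log axis) on each of the 8 arrays, blue for in vivo and orange for in vitro, with a shape for each replicate. In vivo replicates 1 and 3 sit at the lowest ratios, 2.70 and 2.72, with the highest signals, and in vivo replicate 4 at the highest ratio, 12.8.

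In vitro replicate 4 was the lowest array of its group at 7 of the 11 member probe sets, those of STAR, CYP19A1, HSD17B1, CH25H, the brightest CYP3A5 and both brighter NR5A2 probe sets. It was the lowest of its group at 28.6% of all tested probe sets. In vivo replicate 4 was likewise the lowest of its group at 7 member probe sets and at 27.7% of all tested ones. Several of these members share a gene, so the counts are not of independent values.

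The probe sets whose pattern over the 8 arrays lay nearest to each member were found by the mean absolute difference of log2 values, each centred on its own mean. Nearest to STAR were the brightest CYP3A5 probe set, at 0.35, and the interferon-induced gene IFI27, at 0.47, where the median over all tested probe sets was 1.32. IFI27, with 269 ± 109 in vivo and 874 ± 309 in vitro, was also nearest to HSD3B2, at 0.55, followed by GPATCH2 at 0.57. Nearest to CYP3A5 were LARGE2, a glycosyltransferase gene, at 0.33 and STAR. CH25H was matched most closely by TMEM175, a lysosomal potassium channel gene, at 0.42 and by CYB5D2 at 0.47. These distances contain the difference between groups on which the genes were chosen.

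For the members that overlapped, the nearest patterns followed the spread among arrays. HSD17B1 was matched most closely by PAPSS2, which makes the sulfate donor used to sulfate steroids, at a distance of 0.23. PAPSS2 read 1013, 186, 1023 and 110 on in vivo arrays 1 to 4 and 512, 842, 350 and 306 in vitro, so in vivo replicates 1 and 3 were again the highest. SOS1, an activator of RAS, followed at 0.29. NR5A2 was matched by the chaperone gene HSPH1 at 0.17 and by POU2AF3 at 0.19, and CYP19A1 by GGCX and UBE2S, both at 0.38. The medians over all tested probe sets were 0.99, 0.74 and 0.75 for these members.

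The other genes of the same pathways did not pass. In 6 lists of pathway genes, 104 of 156 genes were on the array under their symbol and 73 were tested. None of the 73 rose or fell at a limma adjusted p of 0.05, where 0.282% of the 9578 named genes tested had a probe set that passed. At an unadjusted p under 0.05 there were 12 of the 73, against 15.8% of the named genes tested. Taking the brightest tested probe set of each gene, 34 had a positive and 39 a negative log2 fold change, with a median of -0.05 against 0.01 over all tested probe sets. Array weights, or leaving out in vivo replicate 1, each gave 1 call, HSD11B1.

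HSD11B1, whose product regenerates cortisol from cortisone, had the smallest p of the steroid enzymes. Its signal ran from 103 to 363 on the in vivo arrays and from 41.9 to 73.3 on the in vitro arrays, without overlap. The log2 fold change was -1.71 ± 0.35 (SE, limma adjusted p = 0.0854), and without in vivo replicate 1 it was -2.03 with a limma adjusted p of 0.0116. In the same list of 15 tested enzymes, FDXR, the reductase that feeds electrons to mitochondrial steroid hydroxylases, had 0.88 ± 0.31 (limma adjusted p = 0.350). The steroid sulfotransferase gene SULT2A1 had 0.93 ± 0.29 (limma adjusted p = 0.295). CYP17A1, the theca enzyme that makes androgens, was not above background on any array at either of its 2 probe sets. CYP11A1, which makes pregnenolone inside mitochondria, was not analysed here.

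None of 11 tested genes of cholesterol supply and transport passed, and their median log2 fold change was 0.11. LIPA, which frees cholesterol from its esters in lysosomes, was at 4030 ± 649 in vivo and 4971 ± 340 in vitro, with 0.31 ± 0.16 (SE). STARD3NL had 0.22 at its brightest probe set and -0.083 at its other one, and APOE had -0.12. None of 15 regulators and cyclic AMP signalling genes passed, with a median of -0.04. CEBPA, a transcription factor gene, had -1.43 ± 0.45 (limma adjusted p = 0.296), and CREB1 had -0.53. The SP1 probe sets differed in sign, with -0.36 at the brightest and 0.63 at a dimmer one whose groups did not overlap, neither passing. NR5A1, which encodes the relative of NR5A2 known as SF-1, was not above background on any array, at 7.92 ± 2.55 in vivo and 8.45 ± 2.38 in vitro. The gonadotropin receptor genes FSHR and LHCGR were not analysed here.

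None of 5 tested steroid receptor genes passed, with a median of -0.10. PGRMC1, a progesterone-binding membrane component, was at 10474 ± 4015 in vivo and 10069 ± 1088 in vitro, a log2 fold change of 0.01. The membrane progestin receptor gene PAQR7 had -0.37, the oestrogen receptor gene ESR2 had -0.10 at its brightest probe set and 0.085 at another. The glucocorticoid receptor gene NR3C1 had -0.17 at its brightest probe set and 0.46 and 0.42 at its other tested ones, so its direction was not settled. PGR, the nuclear progesterone receptor gene, was above background on 2 in vivo arrays and 1 in vitro array and was not tested.

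None of 14 tested genes of oxysterol metabolism and sensing passed, with a median of 0.12. The oxysterol receptor genes NR1H2 and NR1H3, which encode LXR-beta and LXR-alpha, had 0.17 ± 0.24 and -0.83 ± 0.33 (SE; limma adjusted p = 0.845 and 0.402). NR1H3 was at 302 ± 190 in vivo and 151 ± 34.8 in vitro. INSIG1, which holds the sterol sensor in the endoplasmic reticulum when oxysterols bind, had 0.16 ± 0.27. OSBPL3, a gene of an oxysterol-binding protein relative, had 0.57 ± 0.18 at its brightest probe set and -0.13 at a dim one. OSBPL8, of the same family, had 0.41 at its brightest probe set and -0.72 at the one of smallest p, neither passing. CYP7B1, which breaks down 25-hydroxycholesterol, and GPR183, a receptor for oxysterols derived from it, were not above background on any array. CYP27A1 was not analysed here.

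The list of xenobiotic P450 genes and their regulators also holds P450 genes of vitamin D metabolism. None of its 13 tested genes passed, with a median of -0.24. The log2 fold change was negative for 11 of these genes at their brightest probe sets, where 50.7% of all tested probe sets had a positive one. CYP2R1 and CYP24A1, which make and inactivate 25-hydroxyvitamin D forms, had -0.78 ± 0.24 and -0.87 ± 0.30 (SE; limma adjusted p = 0.280 and 0.336), and CYP2U1 had -0.77 ± 0.29 (limma adjusted p = 0.378). The absence of a call among 13 genes says little, since 0.282% of the named genes tested had a probe set that passed.

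**Figure D4:**
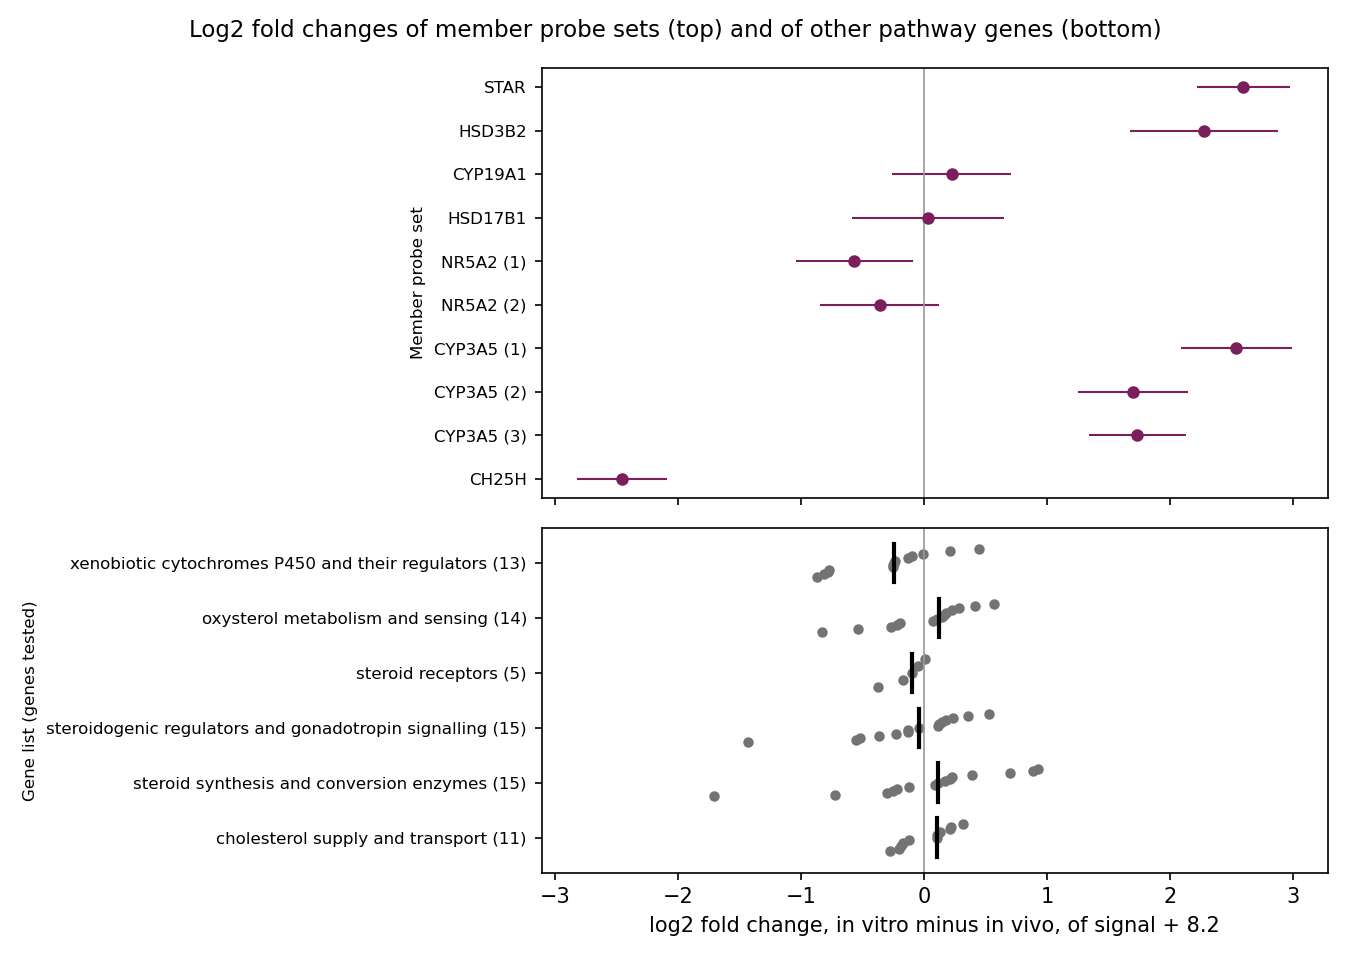
Log2 fold change, in vitro minus in vivo, of signal + 8.2 for the 10 tested member probe sets with standard errors (top) and for the brightest tested probe set of each other gene in the 6 pathway lists, with a black bar at each list's median (bottom). The list medians lie between -0.24 and 0.12, and no list gene passed the adjusted threshold.

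Follicle cell markers were followed beside these values. Among granulosa and cumulus markers 21 were tested, of which INHBA and STAR rose and 19 did not pass. Over the named genes tested, 0.282% had a probe set that passed. Of the list's genes, 5 are the members described above, STAR among them, and those were chosen on this comparison. The other 19 on the array had a summed signal of 24433 to 26897 in vivo and 22103 to 30658 in vitro, overlapping between groups, with 14 to 17 above background in vivo and 13 to 15 in vitro. SERPINE2 alone had 13703 ± 2609 in vivo and 12488 ± 2368 in vitro, so the sums rest largely on it. Of these 19, INHBB was not above background on any array. In the list for theca, stroma and blood vessels 9 were tested, and STAR alone passed. The 13 of this list besides STAR summed to 1582 to 2219 in vivo and 1575 to 2122 in vitro, with CYP17A1 and KDR at background on all arrays at their brightest probe sets. At limma's unadjusted p under 0.05 there were 8 of the 21 granulosa and cumulus markers, STAR and HSD3B2 among them. There were 5 of the 9 in the theca list, STAR among them, 3 of 15 oocyte markers and 0 of 5 blood and immune markers. The share over named genes was 15.8%. STAR and HSD3B2 were chosen on this comparison, so these counts are in part set by that choice. Single markers were higher in vitro, and of those named here besides the members only INHBA passed. COL6A1, TAGLN, INHBA and GREM1 were so without overlap at their brightest probe sets. COL6A1, a collagen gene, was at 26.2 ± 13.0 in vivo and 104 ± 35 in vitro (limma adjusted p = 0.103). Its other probe sets were not above background on any array. TAGLN, a smooth muscle gene, was at 41.2 ± 16.7 and 230 ± 258 (limma adjusted p = 0.244). INHBA, which encodes an inhibin and activin subunit, was at 165 ± 72.4 and 1483 ± 751 and passed. Other markers had lower signals in vitro and did not pass. The stromal gene DCN, at its brightest probe set, was at 85.5 ± 52.8 in vivo and 20.03 ± 21.1 in vitro (limma adjusted p = 0.274). The other tested DCN probe sets had log2 fold changes of 0.55, 0.75 and -0.11. ITIH2 was at 50.65 ± 8.73 in vivo and 19.1 ± 11.7 in vitro (limma adjusted p = 0.322), without overlap. VWF, at its brightest probe set, was at 211 ± 32.3 and 157 ± 17.2 (limma adjusted p = 0.540), also without overlap. The part of follicle cells in the levels of STAR, HSD3B2 and CYP3A5 was not tested.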

How the data were processed

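Total RNA of pools of 4 oocytes was amplified in 2 rounds to biotin-labelled cRNA and hybridised to a single-colour Affymetrix rhesus array, per the labels' protocols. The deposited intensity values are linear MAS5 signals, per the submitters' processing notes, and MAS5's version is not given in the sources used here. Amplification favours 3' ends, and dim probe sets vary strongly between arrays. Of 52865 probe sets 99 controls were left out. Symbols came from the platform annotation, checked by Entrez identifier against RefSeq T2T-MMU8v2.0 (24616 matched, 0 changed), and no coordinates are given.

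Values were taken as log2(signal + 8.2), 8.2 being the 25th percentile of signals. The brighter 50% by mean log2 value (26383) were tested with limma 3.58.1 in R 4.3.3, lmFit and eBayes with an intensity trend, Benjamini-Hochberg at 0.05 over all of them. The method was tested on simulated data. Nothing in the labels says that pools came from separate animals, so p-values reflect only how these pools vary, which may be technical, and the number of arrays limits precision. For a bound, an in vivo array's value is its background, or its own signal where that is larger.

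Members and gene lists were chosen with earlier results of these data known. Named pathway genes are those past the threshold, the 3 of smallest p per list and a fixed set of enzymes and receptors, each given at its brightest tested probe set, and at others where their sign differs. The nearest 2 patterns per member are named. Alternatives were pseudocounts of 1 and 27.7, testing without a filter or only the brightest 25%, median centring, quantile normalization, array weights, no trend, a replicate block, each array left out, and another background. A filter on mean signal was chosen after seeing the data.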

Additional observations from a re-analysis of the deposited data

Results flagged for a closer look

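The CYP19A1 signal on in vivo replicate 2, at 295, stood apart from the other 3 in vivo arrays, the nearest of which was at 75.8. On linear signals the gap took 0.858 of the range of the group, above Dixon's 95% critical value for 4 values. This ratio was not taken on the log2 scale used for the fold changes. Of 22 groups of 4 arrays examined, 1 per probe set and group, this was the only one past that value, and chance alone flags about 1 in 20.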

How the results depend on the processing

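The direction of STAR, HSD3B2, CH25H, the 3 CYP3A5 probe sets and the 2 brighter NR5A2 probe sets was the same in each alternative that tested them. The STAR call was lost without the intensity trend (limma adjusted p = 0.134) and that of CYP3A5 without a filter, without the trend and with a filter on mean signal (0.0522, 0.0813 and 0.0521). With a pseudocount of 1 or the upper-quarter filter this CYP3A5 probe set fell under the filter and was not tested, nor was CH25H with the upper-quarter filter. A pseudocount of 27.7 gave CYP3A5 a log2 fold change of 1.59. The 3 calls among members became 1 with an upper-quarter filter and 1 without the trend, and ranged from 1 to 3 with an array left out. The count over all probe sets, 38, was 10 without the trend, 88 with array weights and 18 to 97 with an array left out (71 and 97 without in vivo replicate 1 and 4, and 18, 21 and 21 without in vitro replicate 1, 2 and 3). Pathway genes called were 1 with array weights and 0 to 1 with an array left out. CYP19A1 reversed to -0.16 with array weights and ran from -0.084 to 0.80 with an array left out. HSD17B1 reversed to -0.056 at a pseudocount of 27.7 and to -0.023 with median centring, and ran from -0.61 to 0.50. PGRMC1 reversed to -0.015 with quantile normalization and -0.047 with median centring. With an array left out PGRMC1 ran from -0.12 to 0.24, APOE from -0.41 to 0.14, ESR2 from -0.22 to 0.019 and INSIG1 from -0.10 to 0.38. The cause of these changes was not tested. The replicate block, on numbers whose deviations correlated at -0.047 to 0.016 and so did not pair the arrays, gave 43 calls, 4 of them members, with HSD3B2 at a limma adjusted p of 0.0355. Of 88 member values, 66 were above background, and 60 with the highest control as background. Signal near background limits CYP3A5 in vivo and CH25H in vitro.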

Other observations

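Some genes of the lists were not tested because their mean fell under the brightness filter, and those named here were chosen after their values were seen. They went in both directions. CYP26B1 was at 18.7 ± 6.34 in vivo and 4.9 ± 2.25 in vitro, without overlap, with 1 in vivo and 0 in vitro arrays above background. APOA1 was at 77.2 ± 78.1 in vivo and 8.5 ± 5.23 in vitro, with overlap, and 3 in vivo and 0 in vitro arrays were above background. CYP46A1, which makes the oxysterol 24-hydroxycholesterol, was at 10.2 ± 4.12 in vivo and 42.5 ± 16.8 in vitro (± SD over 4 arrays), with 1 in vivo and 4 in vitro arrays above background. The vitamin D receptor gene VDR was at 11.3 ± 8.92 and 40.2 ± 11.8 at 1 of its 3 probe sets, likewise with 1 in vivo and 4 in vitro arrays above background, while the others were above background on 0 in vitro arrays.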
